A study of Mus musculus with 4 samples.

Results

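The secretory pathway and the unfolded protein response were followed in mouse embryonic fibroblasts by means of 33 listed genes, matched by symbol to the gene names of the array. Of these, 31 were found, among 27745 gene names on the array, with 53 probes in all, and each gene was read from its brightest probe. Dnajc3 and Manf had no probe under those symbols and were not analysed here. The genes comprise 14 endoplasmic reticulum (ER) chaperones and folding enzymes, the collagen chaperone Serpinh1, 5 components of the translocon and of COPII vesicles, 3 factors of ER-associated degradation, the stress regulators Atf6 and Xbp1, and 6 genes of the Atf4 arm. Each of the 31 probes exceeded background clearly in every one of the 8 channels.

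The fibroblasts were derived from C57BL/6J embryos and labelled either Lats2-/- (KO) or Lats2+/+ (WT). The protein is a Hippo pathway kinase, part of a cascade that limits growth when cells crowd. Cells of each genotype were harvested subconfluent after 48 h (low density) or contact-inhibited after 3 to 5 days (high density), so that density and time in culture changed together and cannot be told apart. Two-colour arrays compared the 2 densities directly, with 2 arrays per genotype and the dyes exchanged between them; no source says that the paired arrays came from separate cultures, so each genotype counts as 1 biological sample and the spread between its arrays is technical. No p-value is therefore given within a genotype, and a difference was called when the mean log2 ratio reached 1 in either direction (2-fold) and the arrays of the pair had the same sign.

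Proteins destined for secretion enter the ER through the Sec61 channel, are folded there by chaperones and oxidised by disulphide isomerases, and leave in COPII-coated vesicles. When unfolded proteins accumulate, the sensors Ire1, Perk and Atf6 start the unfolded protein response. Atf6 and spliced Xbp1 raise transcription of chaperone and degradation genes, whereas Perk and other kinases that phosphorylate the initiation factor eIF2 raise translation of Atf4, which drives genes of amino acid supply and of stress signalling. Fibroblasts secrete large amounts of collagen and other matrix proteins and depend on this machinery throughout.

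Several facts of the whole series bear on these genes. Signal of the brightest Lats2 probe in cells labelled KO exceeded that in WT by 1.38 at low and 1.49 at high density on the log2 scale, 2 further probes were higher too, whereas the remaining probe was at -0.63 and -1.26. Lats1, its paralog, was higher by 1.47 at low density and at least 2.09-fold higher at high density, where neither WT channel was above background. No source used here says which part of Lats2 was deleted, so these probes do not check the labels; the study examined the protein in these fibroblasts by immunoblotting, which was not analysed here. The WT arrays shared a slide and were scanned together, while the KO arrays lay on 2 other slides scanned months apart, so that slide and genotype cannot be told apart. All 10 fibroblast markers were above background in all 8 channels, against 0 of 6 endothelial, 0 of 5 epithelial and 1 of 6 macrophage markers (Cd68). Krt19, a keratin of simple epithelia, was above background in 7 channels and Csf1r, the receptor of a macrophage growth factor, in 6. The keratin Krt18 and the endothelial receptor Kdr were above background in the 2 sparse WT channels alone. Krt19 had a log2 ratio of -2.17 between dense and sparse WT cells and was lower in sparse cells labelled KO, at -1.94. In dense KO cells 1 of the 2 channels was above background for Krt19, and no fold is given against them. Csf1r differed between genotypes at low density by 0.96 with the second KO array and by -0.10 with the first; no value is given at high density, where neither WT channel was above background. Of the 10 fibroblast markers, 5 were called in WT, 7 in KO, 6 for the difference between these effects, and 2 at low and 4 at high density between genotypes. The widest genotype differences among them were those of the growth factor receptor Pdgfra, at 4.46 and 3.10. The part of these markers in the results was not tested. In total RNA from bulk cultures, fewer cells of a type and less RNA per cell cannot be told apart.

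The promoters of these genes were searched for the elements through which the arms of the response are known to act, and 6 are printed here because they hold such matches and belong to genes described below. They are windows from 250 bases before to 50 bases after the transcription start, taken from RefSeq on GRCm38.p6, with every match to a searched motif in capitals. Windows were held for 27 of the 31 genes. The motifs, read on both strands, were the ER stress element ERSE (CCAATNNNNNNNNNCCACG), ERSE-II (ATTGGNCCACG), the core of the unfolded protein response element UPRE (TGACGTGG) and the core of the Atf4-binding CARE (TGATGNAA), with no match overlapping another in these windows. The windows of Hspa5 at chr2:34771840-34772139 (+ strand), Hsp90b1 at chr10:86705395-86705694 (- strand) and Creld2 at chr15:88819396-88819695 (+ strand) hold ERSE. Those of Asns at chr6:7693160-7693459 (- strand) and Chac1 at chr2:119350992-119351291 (+ strand) hold the CARE core, and that of Herpud1 at chr8:94386179-94386478 (+ strand) holds ERSE-II and the CARE core.
Hspa5: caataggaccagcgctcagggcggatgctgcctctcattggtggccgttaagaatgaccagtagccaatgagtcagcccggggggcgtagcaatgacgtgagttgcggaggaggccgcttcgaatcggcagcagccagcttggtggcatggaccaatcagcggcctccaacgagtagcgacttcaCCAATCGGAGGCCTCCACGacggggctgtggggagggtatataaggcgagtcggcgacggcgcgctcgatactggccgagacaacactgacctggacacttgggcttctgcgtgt
Hsp90b1: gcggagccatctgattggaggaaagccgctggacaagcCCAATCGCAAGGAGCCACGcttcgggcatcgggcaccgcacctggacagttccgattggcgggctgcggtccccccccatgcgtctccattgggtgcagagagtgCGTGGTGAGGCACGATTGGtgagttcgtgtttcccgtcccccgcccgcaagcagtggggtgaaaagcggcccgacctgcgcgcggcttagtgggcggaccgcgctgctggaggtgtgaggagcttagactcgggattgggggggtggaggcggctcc
Creld2: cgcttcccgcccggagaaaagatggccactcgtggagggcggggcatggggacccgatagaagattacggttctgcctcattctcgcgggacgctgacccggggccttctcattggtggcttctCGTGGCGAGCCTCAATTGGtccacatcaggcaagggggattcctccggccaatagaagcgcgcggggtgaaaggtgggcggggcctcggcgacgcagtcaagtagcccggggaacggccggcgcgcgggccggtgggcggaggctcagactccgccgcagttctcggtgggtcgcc
Asns: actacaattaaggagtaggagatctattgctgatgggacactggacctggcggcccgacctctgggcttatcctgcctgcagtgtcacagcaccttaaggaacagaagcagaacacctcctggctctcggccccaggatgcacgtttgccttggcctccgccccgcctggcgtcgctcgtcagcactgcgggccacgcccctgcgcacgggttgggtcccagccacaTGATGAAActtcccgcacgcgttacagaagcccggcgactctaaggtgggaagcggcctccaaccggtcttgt
Chac1: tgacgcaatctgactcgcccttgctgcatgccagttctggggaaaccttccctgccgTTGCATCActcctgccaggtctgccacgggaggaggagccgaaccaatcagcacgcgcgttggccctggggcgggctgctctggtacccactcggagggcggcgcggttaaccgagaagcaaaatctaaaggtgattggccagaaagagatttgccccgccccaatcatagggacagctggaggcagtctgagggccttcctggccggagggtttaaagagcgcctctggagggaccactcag
Herpud1: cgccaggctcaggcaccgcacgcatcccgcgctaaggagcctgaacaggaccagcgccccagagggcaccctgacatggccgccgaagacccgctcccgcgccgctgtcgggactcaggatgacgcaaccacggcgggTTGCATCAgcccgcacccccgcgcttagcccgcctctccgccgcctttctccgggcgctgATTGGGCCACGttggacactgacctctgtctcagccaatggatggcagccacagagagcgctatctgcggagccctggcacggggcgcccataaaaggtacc

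ERSE was found in 6 of the 12 chaperone windows (Calr, Canx, Creld2, Hsp90b1, Hspa5 and Pdia6) and in 0 of the 6 windows of the Atf4 arm, against 0.119% of all 32851 windows. Hsp90b1 held 2 matches. The CARE core was found in 4 of the 6 windows of the Atf4 arm (Asns, Atf3, Chac1 and Trib3) and in 0 of the 12 chaperone windows, against 3.97% of all windows. ERSE-II was found in Dnajb11 and Herpud1 (0.0365% of all windows) and the UPRE core in Sec23a and Sec24d (0.676%). No match was found in the windows of Atf4 and Ddit3, which says only that these letters are not in these 300 bases.

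**Figure D1:**
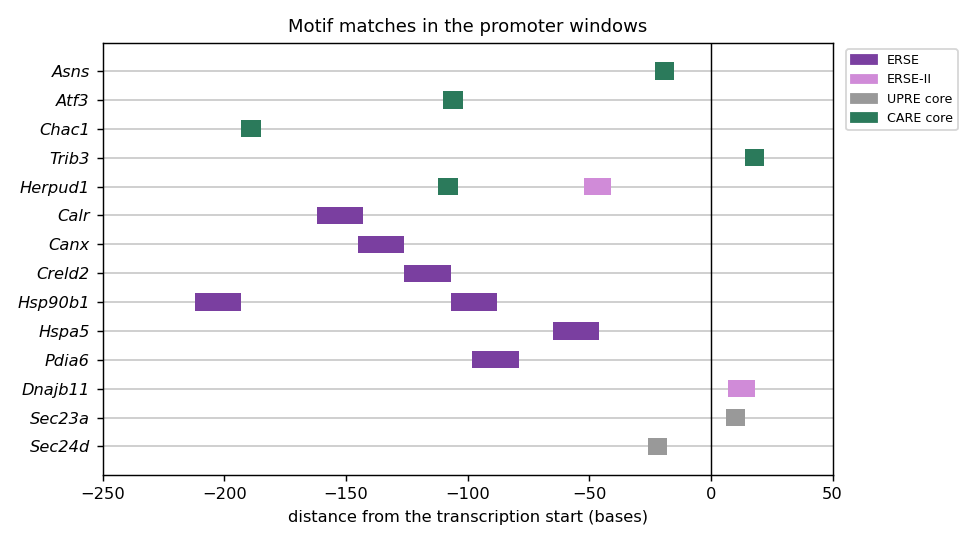
Motif matches in the promoter windows of the genes with at least 1 match; the x axis is the distance from the transcription start in bases and each bar is one match. ERSE (dark purple) lies in 6 chaperone genes and the CARE core (green) in 4 genes of the Atf4 arm and in Herpud1.

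The first question was how these genes differed between dense and sparse WT cells. Most chaperone probes were lower at high density, and the Atf4 arm split, with Asns and Chac1 lower and Ddit3 higher. In all, 6 of 31 genes were called, 1 higher and 5 lower, beside 13.3% of all 22591 probes tested (7.61% higher and 5.72% lower). The median log2 ratio of high over low density was -0.33 over the 31 genes and 0.01 over all probes, with 22 genes below 0. Arrays of the WT pair departed from their mean with an SD of 0.0987 over all probes.

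Among the chaperones and folding enzymes, 12 of 14 lay below 0 in WT cells, with a median of -0.52, and 2 were called. Ero1l (now Ero1a), the oxidase that recharges protein disulphide isomerases, had log2 ratios of -1.20 and -1.23 on the 2 arrays (probe at chr14:44207925-44209628, mm8). A second Ero1l probe gave -0.60, and the mean of both probes was below the 2-fold limit. Hyou1, a nucleotide exchange factor for the ER chaperone Hspa5, had -1.19 and -1.15 (chr9:44143279-44143338). Both genes were thus lower at high density on each WT array, by 2.32-fold and 2.25-fold.

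Hspa5 (BiP), the main ER chaperone and the usual readout of ER stress, gave -0.11 and -0.54 in WT cells, a gap of 0.43 that was the widest among the 31 genes in this comparison. Hsp90b1 (Grp94), the ER form of Hsp90, gave -0.72 and -1.04, and its second probe had a mean of -0.89 (and of -0.63 in KO cells, where the brightest probe gave -0.06). Neither was called. Canx, the membrane lectin chaperone, and Dnajb9 (ERdj4), a co-chaperone of Hspa5, were the 2 chaperones above 0, with means of 0.40 and 0.74. The other probes of Canx gave -0.36 and -0.53, and those of Dnajb9 0.34 and -0.01, so that the signs of both depended on the probe.

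Within the Atf4 arm in WT cells, Asns (asparagine synthetase) gave -1.15 and -1.03 (chr6:7625194-7625253) and Chac1, which degrades glutathione, gave -1.33 and -1.34 (chr2:119045695-119045754). Ddit3 (Chop), the transcription factor linked to cell death under prolonged stress, gave 1.52 and 1.64 (chr10:126698411-126698714). Asns and Chac1 were thus 2.13-fold and 2.52-fold lower and Ddit3 2.98-fold higher at high density. Atf4 itself gave -0.75 and -0.44, Atf3, a stress-induced repressor, -0.71 and -0.70, and Trib3, a pseudokinase induced by Ddit3 and Atf4, 0.08 and 0.22, none of them called. The median of the 6 genes was -0.65.

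Atf6, the membrane-bound sensor, was called lower in WT cells, with -1.28 and -1.1 (chr1:172544223-172544282), and its second probe had a mean of -1.51. Xbp1, whose spliced form is the transcription factor of the Ire1 arm, gave 0.13 and -0.04; the probe does not separate the spliced from the unspliced RNA as far as the files say. The translocon and COPII genes lay between -0.41 (Sec61b) and 0.47 (Sec23a), and the degradation genes between -0.47 (Edem1) and 0.36 (Herpud1). Serpinh1 (Hsp47), which holds procollagen in the ER, gave -0.04 and -0.24. None of these 10 genes was called.

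**Figure D2:**
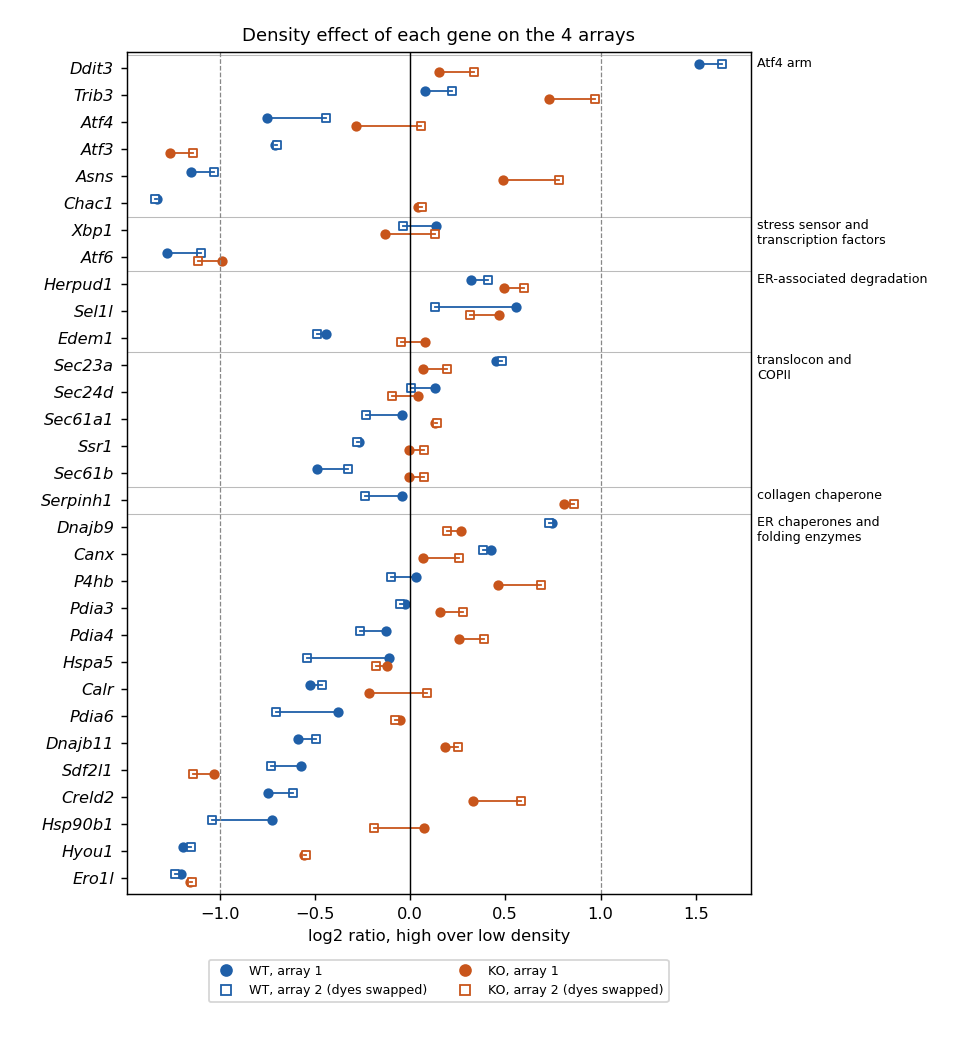
Log2 ratio of high over low density (x axis) of the 31 genes on the 4 arrays, WT in blue and KO in orange, with array 1 filled and the dye-swapped array 2 open; the line joins the 2 arrays of a genotype and dashed lines mark 2-fold. Ero1l and Atf6 lie near -1 or below in both genotypes, whereas Asns, Chac1 and Ddit3 pass 2-fold in WT alone.

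In KO cells the same comparison called 4 of 31 genes, all lower at high density, beside 9.62% of all 23595 probes tested (5.9% higher and 3.73% lower). They were Ero1l (-1.15 on both arrays), Atf6 (-0.99 and -1.11), Sdf2l1 (-1.03 and -1.14) and Atf3 (-1.26 and -1.14). Sdf2l1 is a stress-inducible partner of ER co-chaperones (chr16:17043896-17043955), and the Atf3 probe lies at chr1:192871283-192871342. Ero1l and Atf6 were the 2 genes called in both genotypes. The Atf6 call was lost without the second KO array, where it was -0.99, and the Ero1l call when its probes were averaged (-0.96).

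Of the chaperones, 7 of 14 lay above 0 and 7 below in KO cells, with a median of 0.05, and the median of the Atf4 arm was 0.15. With the mean of all probes of a gene the chaperone median was -0.18, and 15 of the 31 genes lay above 0 against 20. Hspa5 gave -0.12 and -0.18, Hsp90b1 0.07 and -0.19, and Hyou1 -0.56 and -0.55. Asns gave 0.49 and 0.78, Chac1 0.04 and 0.06, Ddit3 0.15 and 0.34, and Trib3 0.73 and 0.97. None of these genes reached 2-fold in KO cells. Atf4 gave -0.28 and 0.06 and Xbp1 -0.13 and 0.13, each on both sides of 0. The SD of an array about its pair mean was 0.143 over all probes, above that of the WT pair.

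The signs of these medians depended on the scaling too. Loess removes a trend of the dye ratio with intensity. With each array centred on its median instead, the median over all probes moved from 0.01 to -0.08 in WT and from 0.01 to -0.09 in KO, while the median over the 31 genes moved to -0.60 in WT and to -0.28 in KO, where 22 of 31 genes then lay below 0 against 11 with loess. The KO medians changed sign, to -0.45 for the chaperones and -0.12 for the Atf4 arm, and the WT medians did not. The share of called probes that were higher went from 57.1% to 43.9% in WT and from 61.3% to 40.3% in KO. The 6 WT calls and the 4 KO calls were the same genes under both scalings.

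The density effects were then set against each other, KO minus WT, on arrays of the same dye orientation. In all, 4 of 31 genes were called, 3 with a higher and 1 with a lower value in KO, beside 8% of all 21545 probes tested (3.78% higher and 4.22% lower). The differences were 1.64 and 1.81 for Asns, 1.37 and 1.4 for Chac1, 1.07 and 1.20 for Creld2, and -1.36 and -1.30 for Ddit3. Creld2, an ER protein that rises with ER stress (chr15:88654333-88654392), gave -0.74 and -0.61 in WT and 0.33 and 0.58 in KO. It was thus below 0 on both WT arrays and above 0 on both KO arrays after loess, but not with median centring, where its difference was 0.95, under the limit. Hspa5 gave differences of -0.01 and 0.36, Hsp90b1 0.80 and 0.85, Atf4 0.47 and 0.50, and Xbp1 -0.26 and 0.17, all under 2-fold. The second Hsp90b1 probe had a mean difference of 0.25. Over the 31 genes the median difference was 0.31, against 0.02 over all probes, with 23 genes above 0. With median centring it was 0.10, against -0.01 over all probes, with 20 genes above 0. The median difference was 0.45 over the chaperones and 0.59 over the Atf4 arm after loess, and 0.18 and 0.57 with median centring.

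On their brightest probes, no disulphide isomerase or lectin chaperone among the 31 genes was called in any comparison, and most of them had a higher density ratio in KO than in WT. P4hb, the isomerase that is also a subunit of prolyl 4-hydroxylase, gave 0.03 and -0.10 in WT and 0.46 and 0.69 in KO. Pdia3 and Pdia4 had means of -0.04 and -0.19 in WT and 0.22 and 0.32 in KO. Pdia6, whose probes disagreed, was -0.54 and -0.07, and Calr -0.49 and -0.06. For each of these 5 genes the KO ratio was above the WT ratio in both dye orientations on the brightest probe, and for Canx it was below. The 4 Pdia6 probes gave differences from -0.75 to 0.47 and the 3 Canx probes from -0.24 to 0.27, so that the direction of both depended on the probe. Of all 14 chaperones, 11 had a difference above 0, and 10 did with median centring. Dnajb11 (ERdj3), a co-chaperone that binds unfolded substrates, was -0.54 in WT and 0.22 in KO.

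On their brightest probes, none of the 8 translocon, COPII and degradation genes among the 31 was called in any comparison. Sec61a1, the pore of the translocon, was -0.14 in WT and 0.14 in KO, and its partner Sec61b -0.41 and 0.03. With median centring Sec61a1 was -0.41 in WT and -0.44 in KO. Sec23a and Sec24d, which form the inner COPII coat, were 0.47 and 0.07 in WT and 0.13 and -0.03 in KO. Herpud1, a membrane protein of the degradation complex, was 0.36 and 0.55, and Sel1l, the adaptor of the Hrd1 ligase, 0.34 and 0.39. Other probes of Sec61a1 reached 0.09 in WT and -0.18 in KO, the second Sec23a probe was at -0.02 and -0.19, and a Sel1l probe was at -0.49 in WT, so that these signs depended on the probe. After loess, the differences of density effects of these 8 translocon, COPII and degradation genes lay between -0.33 (Sec23a) and 0.48 (Edem1), with 6 of 8 above 0. With median centring Sec61a1 was no longer among those above 0.

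The collagen chaperone was close to the limit after loess, but not with median centring. Serpinh1 gave 0.81 and 0.86 in KO cells, and its difference from WT was 0.85 and 1.1 (mean 0.98), the highest among the genes not called. With median centring its KO arrays were at 1.35 and -1.09, and its means were 0.13 in KO and -0.41 in WT. Its probe lies at chr7:99219542-99219603. Genes of its collagen clients and of fibronectin were read on the same arrays, where Col1a1 and Col1a2 passed 2-fold in KO but not in WT. Col1a1 had a mean log2 ratio of 2.16 in KO and 0.50 in WT, and Col1a2 had 2.25 and 0.56, whereas Col3a1 was called higher in both, at 3.44 and 4.14. Fn1 (fibronectin) was 1.03 in KO and -1.60 in WT. The part of these transcripts in the Serpinh1 values was not tested.

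Genotypes were also compared at a fixed density, from single channels and within a dye, after the overall brightness of the arrays had been set equal. At low density 4 of 31 genes were called, 2 of them higher and 2 lower in cells labelled KO, beside 13.9% of all 23339 probes tested (6.87% higher and 7.05% lower). Ddit3 had the largest difference of the 31, at 2.10 and 1.92 in the 2 dyes, or 4.03-fold. Dnajb9 was 0.99 and 1.02 (chr12:45076612-45076671), Asns -1.37 and -1.26, and Creld2 -1.34 and -1.23. The Dnajb9 call was marginal, since it was 0.99 in 1 of the dye orientations and lost its call when all channels were quantile normalised. Its other 2 probes gave 1.22 and 0.83. The remaining 27 genes lay between -0.95 (Atf4) and 0.91 (Atf3), and 4 of 5 translocon and COPII genes lay below 0, with Ssr1 (the signal sequence receptor) and Sec61b both at -0.89. The 3 Ssr1 probes ran from -0.89 to 0.01.

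At high density 1 of 31 genes was called, beside 13% of all 23617 probes tested (6.42% higher and 6.61% lower). It was Chac1, which in cells labelled KO was higher by 1.28 and 1.47, or 2.59-fold. Asns was 0.27 and 0.55, Ddit3 0.74 and 0.61, and Creld2 -0.26 and -0.03. The 3 genes called at low density as well as in the difference of density effects were thus nearer to 0 at high density. Serpinh1 was 0.56 and 0.97, Hsp90b1 0.70 and 0.82, Atf4 -0.50 and -0.43, Hspa5 0.09 and 0.38, and Xbp1 -0.23 and 0.05. The second Hsp90b1 probe gave 1.72 and 0.64, so that its mean of 1.18 passed 2-fold through 1 of the dye orientations, and at low density its mean was 0.93 against -0.07 on the brightest. Sdf2l1 was lowest of all, at -0.72 and -0.76, and was not called.

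**Figure D3:**
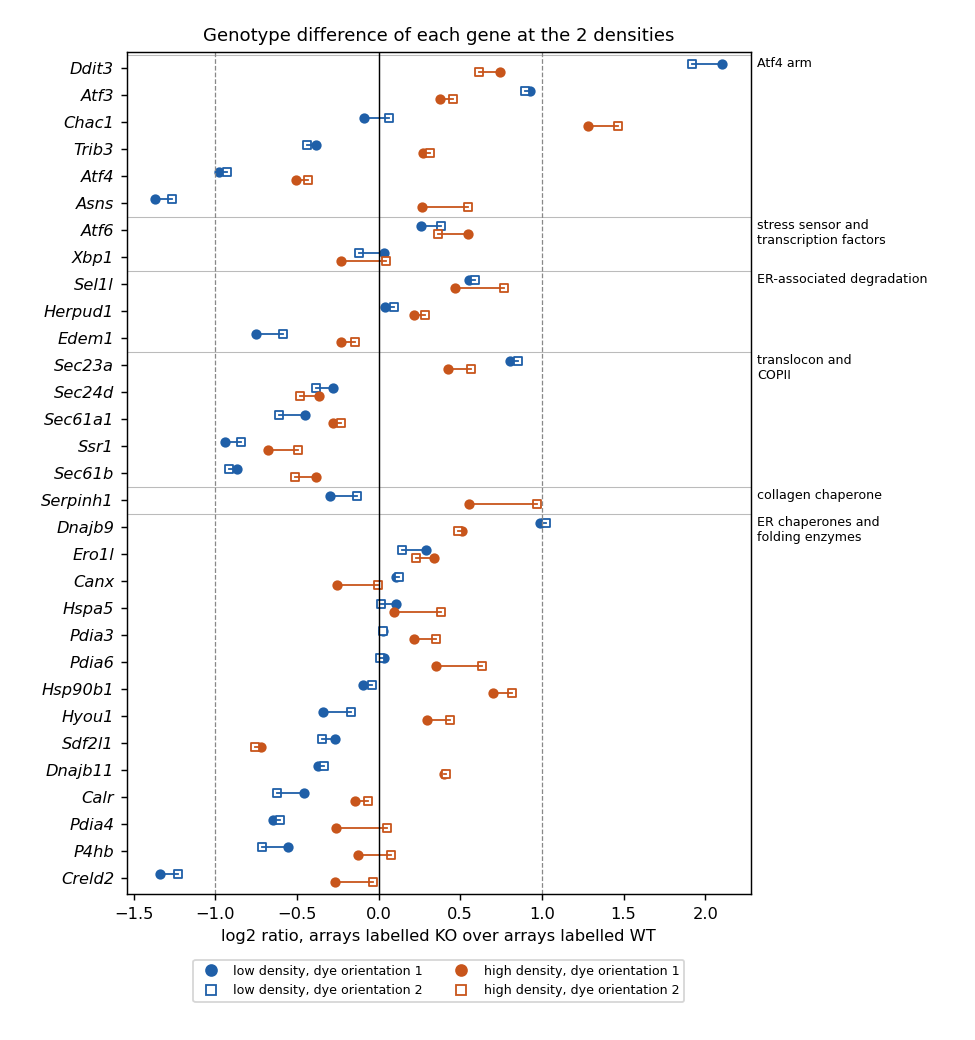
Log2 ratio of arrays labelled KO over arrays labelled WT (x axis) for the 31 genes at low (blue) and high (orange) density, with the dye orientations shown as filled and open symbols and 2-fold as dashed lines. Ddit3 stands at about 2 at low density, and Chac1 is past 2-fold at high density alone.

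The normalised probe signals give these contrasts channel by channel. For Asns, the log2 signal was 14.75 and 14.67 in sparse and 13.60 and 13.64 in dense WT cells, and 13.38 and 13.41 in sparse and 13.86 and 14.19 in dense KO cells. Sparse WT cells thus stood above the other conditions, which lay between 13.38 and 14.19. For Chac1 it was 10.35 and 10.52, then 9.02 and 9.19 in WT, and 10.26 and 10.59, then 10.31 and 10.65 in KO. Here dense WT cells stood below the other conditions, which overlapped.

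For Ddit3 the log2 signal was 8.97 and 9.0 in sparse and 10.48 and 10.64 in dense WT cells, and 11.07 and 10.92, then 11.22 and 11.26 in KO cells. The signal was lowest in sparse WT cells, and the KO channels were above all WT channels. For Creld2 it was 13.86 and 13.80, then 13.12 and 13.18 in WT, and 12.53 and 12.57, then 12.85 and 13.15 in KO. Sparse WT cells were highest and sparse KO cells lowest, with the dense cells of the genotypes overlapping.

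**Figure D4:**
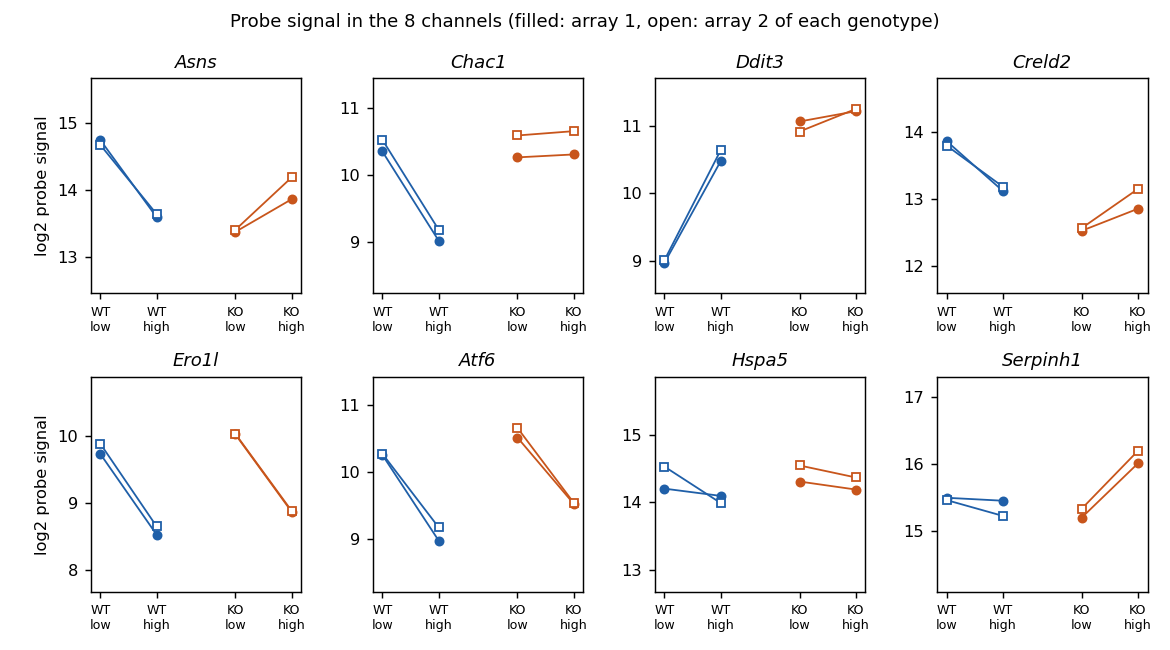
Log2 probe signal after normalization (y axis, each panel spanning 3.2 units) of 8 genes in sparse and dense cells, WT in blue and KO in orange, with a line per array. Ero1l and Atf6 slope down in both genotypes, and Asns and Creld2 slope down in WT and up in KO after loess. With median centring 1 of the 2 KO lines of Asns and of Creld2 slopes down, and 1 of the 2 WT lines of Creld2 slopes up. Hspa5 stays under 2-fold in either genotype, at -0.11 and -0.54 in WT and -0.12 and -0.18 in KO.

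Taking the genotypes as 2 replicates of the density contrast allowed a test, by limma across 21545 probes. With a Benjamini-Hochberg adjusted p under 0.05, 0 probes were called (0%), and 6391 had an unadjusted p under 0.05. None of the 31 genes was called; 5 had an unadjusted p under 0.05, and all 5 were lower at high density. With median centring 12 of the 31 had an unadjusted p under 0.05. Ero1l had a mean log2 ratio of -1.18 ± 0.16 (SE, limma adjusted p = 0.0754) and Atf6 -1.12 ± 0.163 (adjusted p = 0.0762), and Atf3, Sdf2l1 and Hyou1 had -0.95, -0.87 and -0.86 (adjusted p = 0.0903, 0.0947 and 0.111 by limma). Each of the 5 was below 0 on 4 of 4 arrays. Other settings called between 0 and 355 probes, and 0 of the 31 genes under each of them.

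ER chaperones and the Atf4 arm were compared by their counts and medians. In WT cells 2 of 14 chaperones and 3 of 6 Atf4 arm genes were called, and in KO cells 2 of 14 and 1 of 6, beside 13.3% and 9.62% of all probes. The median of the chaperones minus that of the Atf4 arm was 0.13 in WT and -0.10 in KO. In WT it ran from 0.011 with median centring to 0.397 with the processed signals of the scanner software, and from 0.05 to 0.279 without 1 of the WT arrays, and in KO it reached -0.331 with median centring and ran from -0.058 to -0.028 without 1 of the KO arrays. The values of the Atf4 arm ran from -1.33 (Chac1) to 1.58 (Ddit3) in WT cells, against -1.22 (Ero1l) to 0.74 (Dnajb9) for the chaperones. Genotype medians at low density were -0.16 and -0.21, and at high density 0.26 and 0.41, for chaperones and Atf4 arm in that order. They depended on the scaling, since with no scaling between arrays they were 0.11 and 0.06 at low and 0.53 and 0.67 at high density, and the low-density median of the chaperones was 0.01 when all probes of a gene were averaged.

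A wider list of 153 further genes of the pathway was examined in the same way, all matched to the array, with 149 or 150 genes tested per comparison. In WT cells 15 were called, 6 higher and 9 lower, and in KO cells 8, 6 higher and 2 lower, in both cases a smaller share than the 13.3% and 9.62% of all probes. Of the 6 lists it holds, the further Atf4 target genes had the highest share called in WT, 11 of 32 (4 higher and 7 lower), against 1 of 32 in KO, beside the same 13.3% and 9.62%; the KO count was 4 with median centring. In WT 24 of them were below 0, at a median of -0.39, and in KO 17, at a median of 0.00 (-0.34 with median centring). The further folding genes gave 3 calls of 29 in WT and 2 in KO, with medians of -0.02 and 0.23 (-0.22 and -0.16 with median centring), and the further ER to Golgi transport genes 0 of 32 and 1 of 31.

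The widest density effects in WT among these were 1.76 for Ddit4, an inhibitor of mTORC1, -1.61 for Spcs3, a signal peptidase subunit, and -1.59 for Psat1, an enzyme of serine synthesis. In KO they were 2.17 for the lipoprotein receptor Vldlr, 1.59 for the cargo receptor Tmed3 and 1.49 for Creb3l2, a membrane-bound transcription factor of secretory cells. Vldlr was also called in WT, at 1.58. For the difference of density effects, 6 of 149 genes were called, 5 of them Atf4 targets, beside 8% of all probes. They were led by Cebpb (-2.14), the mitochondrial folate enzyme Mthfd2 (1.25) and the methionyl-tRNA synthetase Mars (1.07). Cebpb, a transcription factor that partners Atf4 family members, was 1.25 in WT and -0.89 in KO. Mthfd2 was -1.48 in WT and -0.23 in KO.

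At low density most of the further Atf4 target genes had less signal in cells labelled KO, with 28 of 32 below 0, a median of -0.80 against 0.04 over all probes, and 8 called lower and 0 higher, beside 7.05% and 6.87% of all probes. Under the 5 other scalings 25 to 27 were below 0. Gdf15, a stress-induced cytokine, was -2.03, and Psat1 -1.84. At high density the median was -0.26 (0.02 with no scaling between arrays) and 4 were called lower and 1 higher, beside 6.61% and 6.42% of all probes, with Ddit4 at -2.57 and Gdf15 at -2.16. Sec16b, named Lztr2 on the array and a scaffold of ER exit sites, was well above background in both WT channels but in neither KO channel at low density, and was at least 6.51-fold lower there in KO. At high density 1 of the 2 KO channels was above background, and no fold is given. With no scaling between arrays, the median of all probes rose to 0.27 at both densities and called probes that were higher in KO made up 72.3% at low and 70.2% at high density, against 49.3% at each with scaling. Of the 31 genes, 17 at low and 26 at high density then lay above 0, against 12 and 18.

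**Figure D5:**
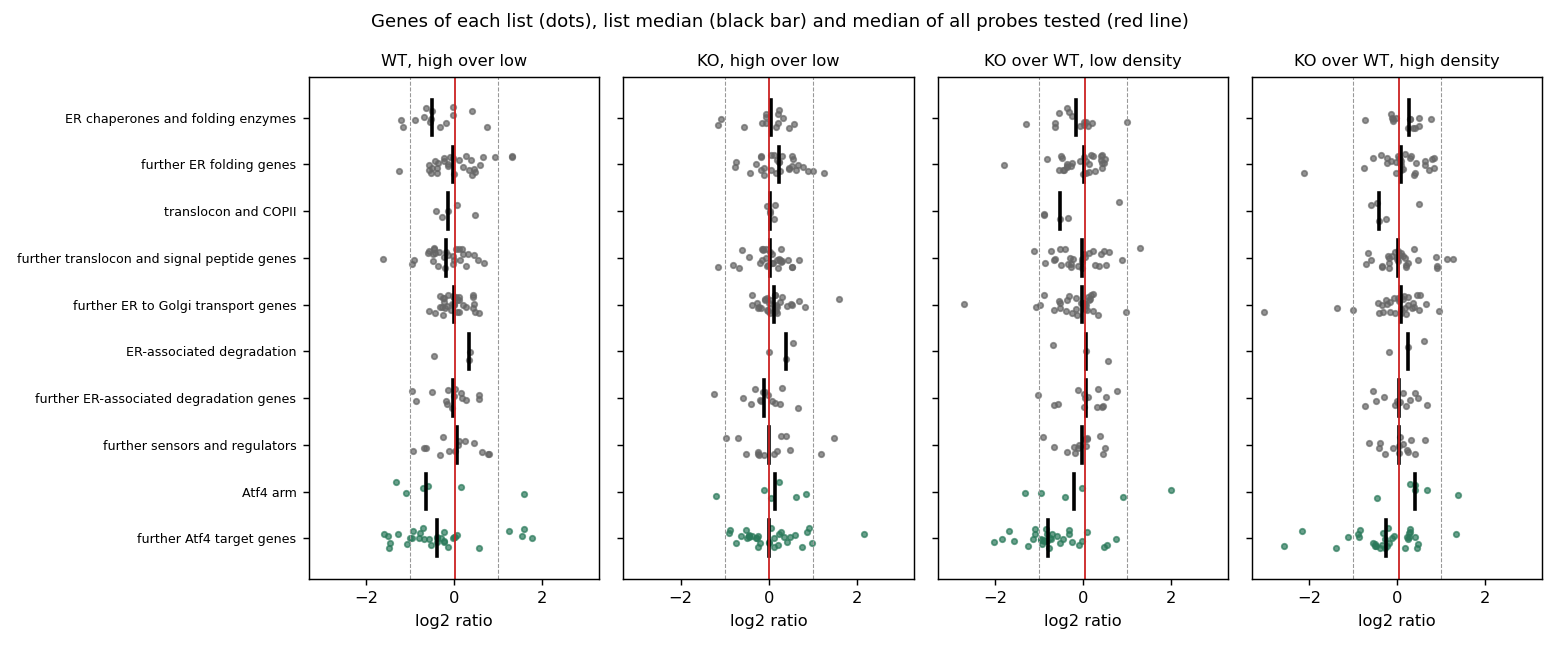
Mean log2 ratio of each gene (dots, x axis) by list in 4 comparisons, with the list median as a black bar, the median of all probes as a red line and 2-fold as dashed lines; Atf4 lists are in green. The median of the further Atf4 target genes lies left of the red line in WT, where 24 of 32 genes are below 0 and 4 are called higher, and in the genotype difference at low density, where 28 of 32 are below 0.

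Several probes of a gene did not always give the same value. Of 13 genes with several tested probes, 3 had probes that differed by more than 1 on the log2 scale in some comparison, and 8 in WT and 6 in KO had probes on both sides of 0 for the density effect. For Calr, the soluble lectin chaperone, the genotype difference at low density was -0.54 on the brightest probe and 0.53 on the other. For Pdia6, a disulphide isomerase, 4 probes ranged from 0.02 to 1.64 at low density, and for Edem1, which extracts misfolded glycoproteins, 3 probes ranged from -1.15 to 0.19 at high density. A probe other than the brightest passed 2-fold for Pdia6 at low, Hsp90b1 at high and Edem1 at either density, where the brightest did not. Asns, Chac1, Ddit3, Creld2, Atf3, Sdf2l1, Hspa5, Xbp1 and Serpinh1 each had 1 probe.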

How the data were processed

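Total RNA was labelled with Cy3 and Cy5 and hybridised to 4 Agilent whole mouse genome arrays of design 014868, annotated on mm8. The authors scanned them and extracted the features with Feature Extraction 10.5.1.1, per the file headers; the deposited values are spot intensity (mean, local background and processed signal), a log10 ratio of Cy5 over Cy3 and flags for spots well above background, saturated or outlying. The deposited series table holds the same log10 ratio, turned to high over low density. The study's methods name the Subio Platform for fold changes; those results were not used here.

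From these, intensity was corrected with normexp (offset 50) and normalized by loess within each array in limma 3.58.1 (R 4.3.3), leaving out control and outlier spots (107 to 224 per array). Ratios (log2) were oriented as high over low, then averaged over spots of a probe and over the dye swap. Genotype differences came from single channels after Aquantile scaling. A probe was tested when well above background on both arrays in at least 1 of the groups compared. Calls needed 2-fold and one sign across the pair; the test shared by genotypes was limma with Benjamini-Hochberg adjustment. Scripts were tested on simulated data. The number of arrays limits the precision, and depth does not apply.

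The brightest probe of a gene by mean log2 intensity was used. Values are given array by array for each gene with a call and for Hspa5, Hsp90b1, Atf4, Ddit3, Xbp1 and Serpinh1. The 3 widest called genes of the wider list per comparison are given as means, except Sec16b, which has a bound or no value. The genes and lists were chosen with earlier results of these data known. Alternatives tried were median centring, offset 0, the processed signals of the software, other filters, the mean of all probes, a 1.4-fold limit, other scaling between arrays and leaving out arrays. No sequences of proteins were used here.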

Additional observations from a re-analysis of the deposited data

Results flagged for a closer look

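For 8 genes, both WT arrays lay below 0 and both KO arrays above 0 in the density effect, a pattern shown by 7% of all 21545 probes tested, with the opposite pattern in 7.46% of probes and 0 of the 31 genes. With median centring in place of loess 0 of the 8 showed it, and 0.627% of all probes did; the KO mean was then above 0 for 4 of the 8 and the WT mean below 0 for 8. With the processed signals of the scanner software 7 of the 8 showed it, the exception being Pdia3. The differences after loess, KO minus WT on the log2 scale, were 1.72 for Asns, 1.39 for Chac1, 1.13 for Creld2 and 0.98 for Serpinh1. They were 0.76 for Dnajb11, 0.52 for Pdia4, 0.27 for Sec61a1 and 0.26 for Pdia3. With median centring the WT and KO means were -0.41 and -0.44 for Sec61a1 and -0.30 and -0.24 for Pdia3. The KO mean was then below the WT mean for Sec61a1, and above it for each other gene of the 8. The difference between the genotypes was not tested, since each is 1 biological sample. The KO values of Chac1, at 0.04 and 0.06, were smaller than the SD of 0.143 between KO arrays, as were those of Sec61a1, at 0.13 and 0.14. The WT values of Pdia3, at -0.03 and -0.05, were smaller than the SD of 0.0987 between WT arrays, and so was -0.04 on the first WT array for both Serpinh1 and Sec61a1. Other probes of Sec61a1 gave 0.09 in WT and -0.18 in KO.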

How the results depend on the processing

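With 31 genes and 5 comparisons, 19 calls were made in 10 genes; 14 of the 19 stayed past 2-fold under every alternative, and no called value changed sign. The exceptions were Ero1l in both genotypes (mean of all probes), Atf6 in KO, Creld2 in the difference and Dnajb9. In what follows values are in the order WT density effect, KO density effect, their difference, genotype at low and at high density. At a 1.4-fold limit 15, 10, 13, 15 and 10 genes were called, and 8578, 8168, 6125, 9385 and 8870 probes, against 3012, 2271, 1724, 3249 and 3076 at 2-fold. With offset 0, 4807, 3862, 2588, 5275 and 4940 probes were called, and with the processed signals of the software 5829, 4866, 3149, 6262 and 5909. Median centring gave medians over the genes of -0.596, -0.285, 0.098 and -0.027 in the first 4, against -0.325, 0.054, 0.305 and -0.213. The median of chaperones minus that of the Atf4 arm (0.133, -0.097, -0.14 and, at high density, -0.15) became 0.011, -0.331 and -0.386 with median centring. In WT it was 0.333 with offset 0, 0.397 with the processed signals and 0.05 to 0.279 without 1 array; at high density it was -0.346 with the processed signals, and in KO -0.329 with the mean of all probes. The low-density median was -0.045 with the mean of all probes, 0.049 with no scaling between arrays and -0.097 with quantile normalization. With no scaling the high-density median was 0.533 and 3 genes were called. The limma test called 3 probes with median centring, 355 with offset 0, 287 with the processed signals, 195 with every channel above background and 0 to 150 without 1 array, against 0. The cause of these shifts was not tested. With no filter on dim probes the calls and medians of the genes were unchanged, but 7.33%, 5.53%, 4.86%, 8% and 7.57% of all probes were called, against 13.3%, 9.62%, 8%, 13.9% and 13%. The median of chaperones minus Atf4 arm was -0.058 to -0.028 in KO without 1 KO array, and -0.245 to -0.045 in the difference without 1 array of each genotype.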
